A study of Mus musculus with 4 samples.

Results

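The genes described here are the platelet-derived growth factor (PDGF) ligands Pdgfa, Pdgfb, Pdgfc and Pdgfd, the receptors Pdgfra and Pdgfrb, and 4 genes linked to mesangial cells or their adhesion, Itga8, Gata3, Piezo2 and Itgb1. These 10 genes were picked by symbol from the 25636 genes of the count matrices, and all 10 were found in every matrix. Their identifiers are ENSMUSG00000025856 for Pdgfa, ENSMUSG00000000489 for Pdgfb, ENSMUSG00000028019 for Pdgfc, ENSMUSG00000032006 for Pdgfd, ENSMUSG00000029231 for Pdgfra, ENSMUSG00000024620 for Pdgfrb, ENSMUSG00000026768 for Itga8, ENSMUSG00000015619 for Gata3, ENSMUSG00000041482 for Piezo2 and ENSMUSG00000025809 for Itgb1. Nuclei of the renal cortex of female MRL/lpr mice and female C57BL/6 mice were profiled by droplet-based 3′ RNA sequencing at 6 weeks and at 10 weeks of age. MRL/lpr is a lupus-prone strain that carries the lpr mutation of the death receptor gene Fas. A Fas-sufficient MRL group was not part of these libraries, so the lpr mutation, the MRL background and disease cannot be told apart. Each strain and age has 1 library, and the labels do not say how many mice went into it. No difference therefore has a replicate check, no test was run, and the intervals given are 95% intervals that cover counting error only. By its title, the series asks how macrophages act on mesangial cells in the lupus kidney.

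PDGFs are secreted dimers that act through receptor tyrosine kinases on mesenchymal cells. PDGF-A, PDGF-B and PDGF-C chains bind the alpha receptor encoded by Pdgfra, and PDGF-B and PDGF-D bind the beta receptor encoded by Pdgfrb. PDGF-C and PDGF-D are secreted in a latent form and become active once proteases cut off a masking domain. In the developing glomerulus, PDGF-B from endothelium recruits mesangial cells through the beta receptor, and mice that lack either gene form no mesangium. Mesangial cells are the contractile support cells between the glomerular capillaries. They carry the alpha8 beta1 integrin encoded by Itga8 and Itgb1, and in mice they are also known for the transcription factor Gata3 and the mechanically gated channel Piezo2.

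The libraries gave 9365 barcodes in MRL/lpr and 10182 in C57BL/6 at 6 weeks, and 9889 in MRL/lpr and 9638 in C57BL/6 at 10 weeks, of which 35739 of 39074 were kept. Kept nuclei held between 5787376 and 6592845 unique molecular identifiers (UMIs, each a counted RNA molecule) per library, with a median of 561 to 693 per nucleus. Pairs of libraries shared 112 to 143 barcodes. As a check of the strain labels, H2-Ea, a class II gene silent in C57BL/6, had 48 UMIs in MRL/lpr and 0 in C57BL/6 at 6 weeks, and 40 in MRL/lpr and 0 in C57BL/6 at 10 weeks. Fas itself had 212, 175, 190 and 128 UMIs in the same order, which does not check the labels.

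Each nucleus was given to the class whose marker genes had the most UMIs in it, and none of the 10 genes served as a marker. The mural class (smooth muscle, pericyte, renin and mesangial cells) held 165 nuclei, the fibroblast class 573, endothelium 2862, podocytes 645 and macrophages 352. The tubule held 27977 nuclei, split into proximal tubule (19136), thick ascending limb (1928), distal and connecting tubule (4694), principal cells (996) and intercalated cells (1223). A further 3149 nuclei fell into no class. The mural class was small, with 28 nuclei in MRL/lpr and 64 in C57BL/6 at 6 weeks, and 33 in MRL/lpr and 40 in C57BL/6 at 10 weeks. In it 1 UMI equals 50.0 to 88.8 CPM (counts per 1000000 UMIs of the class). The fibroblast class had 49 nuclei in MRL/lpr and 328 in C57BL/6 at 6 weeks, and 94 in MRL/lpr and 102 in C57BL/6 at 10 weeks. Endothelium had 306 and 1269 nuclei at 6 weeks and 467 and 820 at 10 weeks, MRL/lpr before C57BL/6. The gene with the largest excess in the mural class was Ren1, which encodes renin and is itself a mural marker. Its excess is therefore in part set by the markers and does not identify the class. The class mixes several cell types and was not read as a mesangial class. UMIs of proximal tubule markers made up 0.0769 to 0.166% of all UMIs in the other classes apart from macrophages, where they made up 0.170 to 0.525%, against 1.72 to 2.32% in the proximal tubule itself.

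The share of each gene's UMIs by class differed between the genes. Proximal tubule nuclei held 87.2% of the 5666 UMIs of Pdgfc, and endothelium held 65.1% of the 541 UMIs of Piezo2. Proximal tubule nuclei were also 19136 of the 35739 kept nuclei and the deepest class, with a median of 744 to 856.5 UMIs per nucleus. The endothelial share of Piezo2 differed by library, with 41.6% in MRL/lpr and 78.0% in C57BL/6 at 6 weeks, and 42.6% in MRL/lpr and 74.1% in C57BL/6 at 10 weeks. Shares depend on the number of nuclei in a class, and MRL/lpr had fewer endothelial nuclei at both ages. The receptors lay mostly in fibroblast and mural nuclei and in nuclei with no class, which held 49.0% of the UMIs of Pdgfra, 44.6% of those of Pdgfrb and 41.1% of those of Itga8. For the other 7 genes the nuclei with no class held 4.4 to 16.6%.

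**Figure D1:**
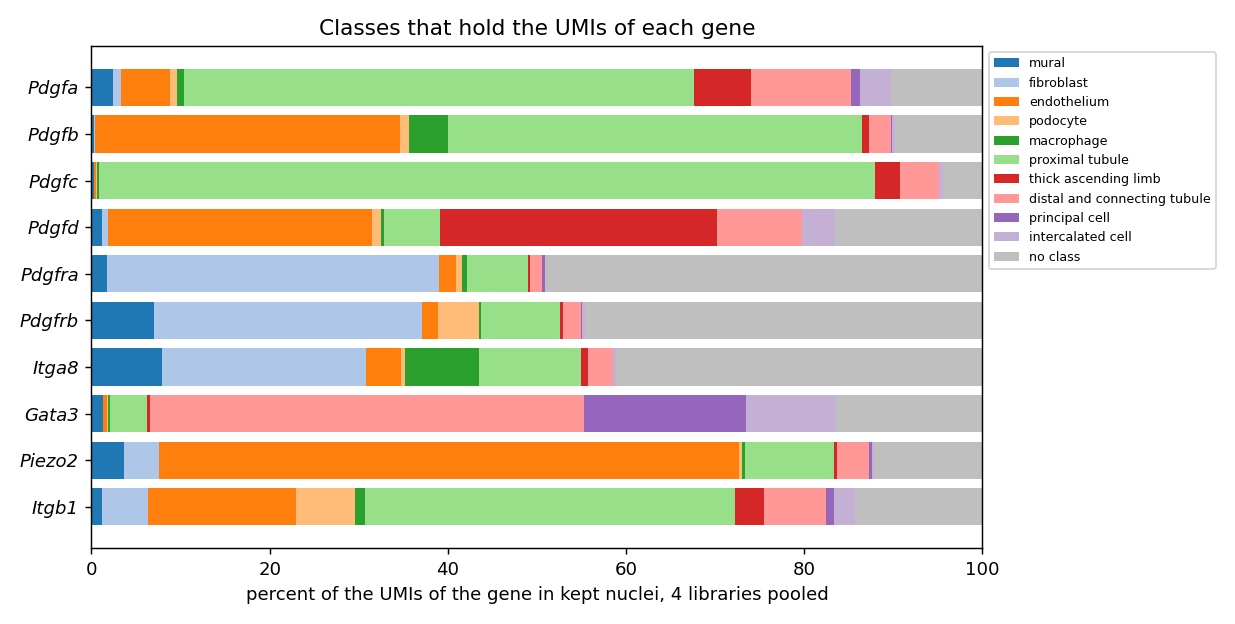
Share of each gene's UMIs (percent, horizontal axis) that lay in nuclei of each class, with the 4 libraries pooled. Pdgfc is almost filled by proximal tubule (87.2%), Piezo2 mostly by endothelium (65.1%), and the grey part, nuclei with no class, is widest for Pdgfra (49.0%), Pdgfrb (44.6%) and Itga8 (41.1%).

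Pdgfb, which encodes the PDGF-B chain, was highest per UMI in endothelium and macrophages. Endothelial nuclei had 161 CPM in MRL/lpr and 322 CPM in C57BL/6 at 6 weeks, from 20 and 123 UMIs. At 10 weeks they had 207 CPM in MRL/lpr and 273 CPM in C57BL/6, from 31 and 70 UMIs. Both MRL/lpr libraries thus lay below both C57BL/6 libraries. The Pdgfb level in endothelium was 2.00-fold lower in MRL/lpr at 6 weeks (95% interval 1.24 to 3.40) and 1.31-fold lower at 10 weeks (0.850 to 2.08), and the interval at 10 weeks includes no difference. Endothelial nuclei with a UMI of Plvap, a marker of fenestrated peritubular capillaries, had 14 Pdgfb UMIs in MRL/lpr and 69 in C57BL/6 at 6 weeks, and 14 in MRL/lpr and 50 in C57BL/6 at 10 weeks. The MRL/lpr over C57BL/6 ratio in them was 0.569 at 6 weeks and 0.535 at 10 weeks. Those without Plvap had 6 Pdgfb UMIs in MRL/lpr and 54 in C57BL/6 at 6 weeks, and 17 in MRL/lpr and 20 in C57BL/6 at 10 weeks. Their MRL/lpr over C57BL/6 ratio of the Pdgfb level was 0.420 at 6 weeks (0.148 to 0.976) and 1.18 at 10 weeks (0.579 to 2.37), so the direction differed between the ages.

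Macrophage nuclei had Pdgfb levels in the range of endothelium. Their Pdgfb level was 222 CPM in MRL/lpr and 160 CPM in C57BL/6 at 6 weeks, and 175 CPM in MRL/lpr and 294 CPM in C57BL/6 at 10 weeks. These levels rest on 8, 3, 10 and 10 UMIs in the same order, and the strains lay in opposite order at the 2 ages. The range of Pdgfb over the 4 libraries overlapped between endothelium and macrophages, so their order was not resolved. Both lay above all other classes, though mural nuclei, with at most 1 Pdgfb UMI a library, are limited by depth. The proximal tubule had far lower Pdgfb levels of 15.9 to 23.8 CPM, but as the largest class it held 332 UMIs over the 4 libraries, beside 244 in endothelium. Per library the proximal tubule held more Pdgfb UMIs than endothelium in MRL/lpr (95 and 20 at 6 weeks, 100 and 31 at 10 weeks). In C57BL/6 it held fewer (79 and 123 at 6 weeks, 58 and 70 at 10 weeks). MRL/lpr had more proximal tubule nuclei (5484 against 4000 at 6 weeks, 5449 against 4203 at 10 weeks) and fewer endothelial nuclei. These UMI totals depend on the number of nuclei as well as on the level. In the thick ascending limb, distal and connecting tubule, principal and intercalated cells Pdgfb was at 0 to 12.7 CPM.

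Pdgfa, which encodes the PDGF-A chain, had few UMIs in every class outside the proximal tubule. Its highest CPM in all 4 libraries was in mural nuclei, at 178 CPM in MRL/lpr and 350 CPM in C57BL/6 at 6 weeks, and 272 CPM in MRL/lpr and 142 CPM in C57BL/6 at 10 weeks. Only 2, 7, 5 and 2 UMIs stand behind these levels. The next class by mean, the thick ascending limb, had 34.5 to 62.8 CPM of Pdgfa, which did not reach the mural range. The remaining classes overlapped one another, between 0 and 88.1 CPM. The proximal tubule held 376 of the Pdgfa UMIs. There the level was 25.2 CPM in MRL/lpr and 21.8 CPM in C57BL/6 at 6 weeks, and 30.0 CPM in MRL/lpr and 14.3 CPM in C57BL/6 at 10 weeks. The Pdgfa level in proximal tubule nuclei was 1.16-fold higher in MRL/lpr at 6 weeks (0.863 to 1.56) and 2.11-fold higher at 10 weeks (1.51 to 2.97).

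Pdgfc, which encodes a latent ligand of the alpha receptor, was a proximal tubule transcript in these libraries. Proximal tubule nuclei had 1671 UMIs in MRL/lpr and 856 in C57BL/6 at 6 weeks, and 1499 in MRL/lpr and 913 in C57BL/6 at 10 weeks. The levels were 351 CPM in MRL/lpr and 239 CPM in C57BL/6 at 6 weeks, and 357 CPM in MRL/lpr and 250 CPM in C57BL/6 at 10 weeks. Both MRL/lpr libraries lay above both C57BL/6 libraries. The Pdgfc level was 1.47-fold higher in MRL/lpr at 6 weeks (1.35 to 1.60) and 1.43-fold higher at 10 weeks (1.31 to 1.55), below the 2-fold limit used for calls. Between the ages it differed little, by 1.02-fold in MRL/lpr (0.949 to 1.09) and 1.05-fold in C57BL/6 (0.954 to 1.15), as the ratio of 10 over 6 weeks.

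Other tubule segments also had Pdgfc. The thick ascending limb had 193 CPM in MRL/lpr and 192 CPM in C57BL/6 at 6 weeks, and 148 CPM in MRL/lpr and 156 CPM in C57BL/6 at 10 weeks. Distal and connecting tubule nuclei had 82.6 to 124 CPM of Pdgfc, while intercalated cells had 21.3 to 40.6 CPM and principal cells 0 to 23.9 CPM. In the thick ascending limb the MRL/lpr over C57BL/6 ratio of Pdgfc was 1.00 at 6 weeks (0.639 to 1.57) and 0.945 at 10 weeks (0.576 to 1.55), and its difference from the proximal tubule ratio was not tested. Thick ascending limb nuclei with no UMI of a proximal tubule marker had 33 Pdgfc UMIs in MRL/lpr and 22 in C57BL/6 at 6 weeks, and 24 in MRL/lpr and 27 in C57BL/6 at 10 weeks. A nucleus can lack such a UMI by depth alone, and the part of proximal tubule RNA in these counts was not tested. Mural nuclei had 5, 4, 1 and 4 Pdgfc UMIs in the same order, too few to place the class against the proximal tubule.

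Pdgfd, which encodes the latent ligand of the beta receptor, had its highest levels in the thick ascending limb and endothelium. The thick ascending limb had 829 CPM in MRL/lpr and 824 CPM in C57BL/6 at 6 weeks, and 957 CPM in MRL/lpr and 1011 CPM in C57BL/6 at 10 weeks. Endothelium had 739 CPM in MRL/lpr and 937 CPM in C57BL/6 at 6 weeks, and 943 CPM in MRL/lpr and 755 CPM in C57BL/6 at 10 weeks. The ranges of these classes overlapped. By their levels both lay above mural nuclei, which had 350 to 566 CPM, but from only 5 to 10 UMIs a library. The place of mural nuclei below them is thus limited by depth. In the thick ascending limb the strains were close, with an MRL/lpr over C57BL/6 ratio of the Pdgfd level of 1.01 at 6 weeks (0.815 to 1.24) and 0.947 at 10 weeks (0.785 to 1.14). In endothelium the ratio was 0.789 at 6 weeks (0.620 to 0.994) and 1.25 at 10 weeks (0.998 to 1.56), so the strains changed order between the ages. The proximal tubule, the main source of Pdgfc, had 8.09 to 12.8 CPM of Pdgfd.

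**Figure D2:**
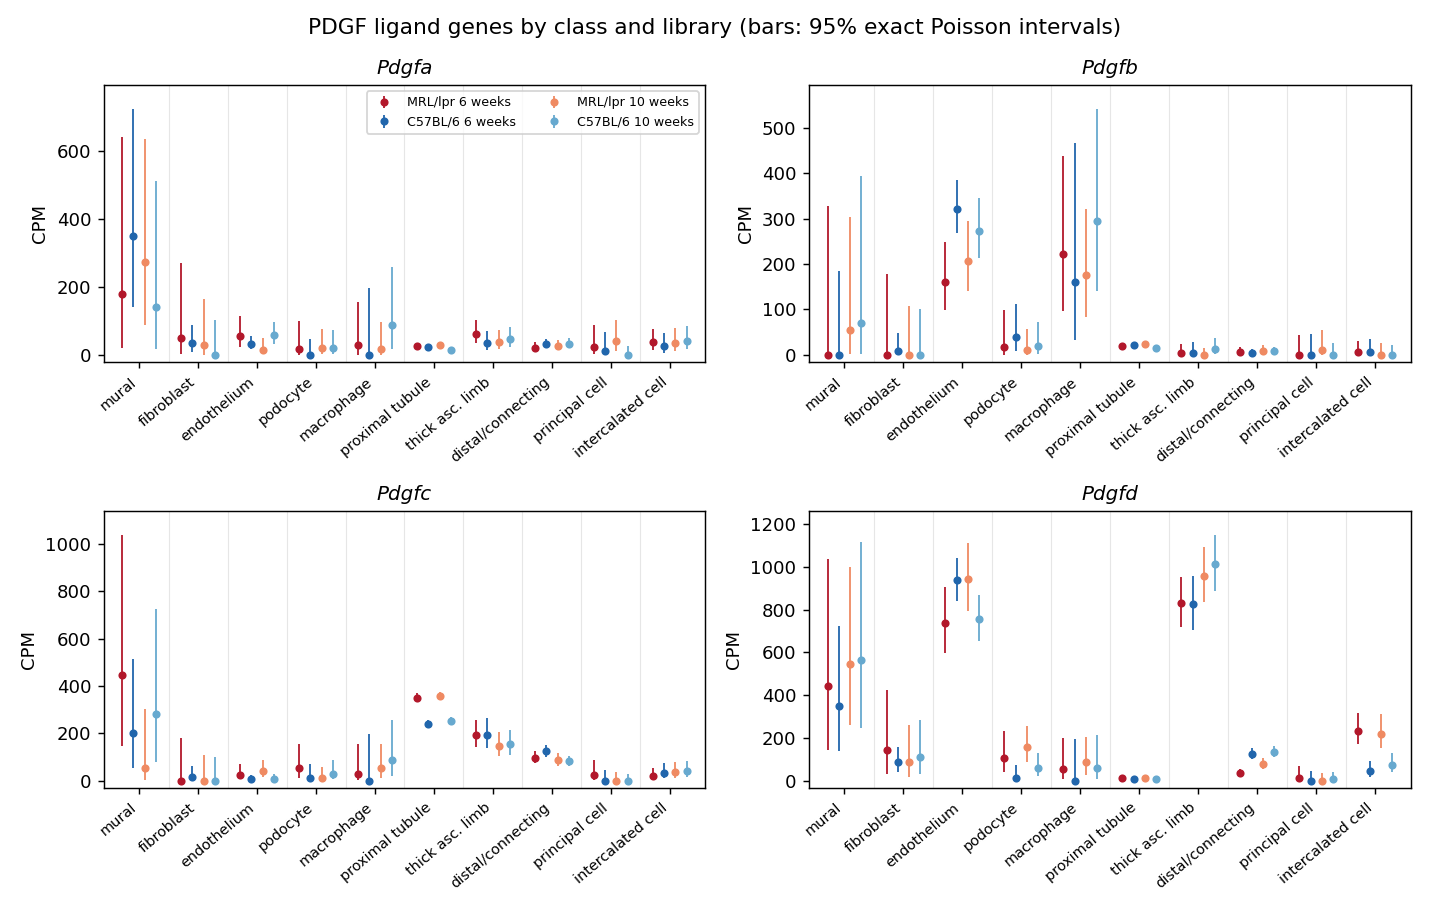
Levels of the 4 ligand genes (CPM, vertical axes with different scales) in 10 classes, with 1 point per library and bars for 95% exact Poisson intervals; MRL/lpr is in red and orange, C57BL/6 in dark and light blue. Pdgfb stands out in endothelium and macrophages, Pdgfc in proximal tubule with both MRL/lpr points (351 and 357 CPM) above both C57BL/6 points (239 and 250 CPM), and Pdgfd in thick ascending limb and endothelium, while mural levels have wide bars.

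In the distal nephron, Pdgfd was higher in MRL/lpr in intercalated cells and lower in MRL/lpr in distal and connecting tubule, and the difference between these classes was not tested. Intercalated cells, the acid and base secreting cells of the connecting tubule and collecting duct, had 44 Pdgfd UMIs in MRL/lpr and 7 in C57BL/6 at 6 weeks, and 32 in MRL/lpr and 13 in C57BL/6 at 10 weeks. The levels were 234 CPM in MRL/lpr and 44.1 CPM in C57BL/6 at 6 weeks, and 220 CPM in MRL/lpr and 75.4 CPM in C57BL/6 at 10 weeks. Both MRL/lpr libraries lay above both C57BL/6 libraries. The Pdgfd level in intercalated cells was 5.32-fold higher in MRL/lpr at 6 weeks (2.38 to 14.0) and 2.91-fold higher at 10 weeks (1.49 to 6.05). The UMIs were spread over 37 and 27 nuclei in MRL/lpr at 6 and 10 weeks, against 7 and 12 nuclei in C57BL/6.

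This was the 1 pair of gene and class, of 29 with at least 50 UMIs, that was 2-fold or more higher in MRL/lpr at each age. Among all 3478 genes with as many UMIs in intercalated cells, 1.87% met that rule, and over all classes 1.85% of 36780 pairs of gene and class did. Pdgfd was also higher in the intercalated cells with a UMI of Slc26a4, the chloride and bicarbonate exchanger of type B cells, and none of Slc4a1. These nuclei had 35 Pdgfd UMIs in MRL/lpr and 5 in C57BL/6 at 6 weeks, and 27 in MRL/lpr and 11 in C57BL/6 at 10 weeks, or 5.67-fold more per UMI at 6 weeks (2.21 to 18.5) and 2.76-fold more at 10 weeks (1.33 to 6.16). Nuclei with Slc4a1, the exchanger of type A cells, and no Slc26a4 had 2 and 1 Pdgfd UMIs at 6 weeks and 3 and 0 at 10 weeks, MRL/lpr first in each pair, and give no direction at this depth. The thick ascending limb has more Pdgfd than any intercalated group. Its markers were at 564 CPM in MRL/lpr and 547 CPM in C57BL/6 intercalated cells at 6 weeks, and at 598 CPM in both strains at 10 weeks. In intercalated cells with no UMI of those markers, Pdgfd was 6.96-fold higher in MRL/lpr at 6 weeks (2.45 to 27.2) and 2.65-fold higher at 10 weeks (1.08 to 7.08), from 30 and 4 UMIs and from 17 and 8 UMIs. A nucleus can lack such a UMI by depth alone, and the part of thick ascending limb RNA in the ratio was not tested. The 13 podocyte markers summed to 1262 CPM in MRL/lpr and 566 CPM in C57BL/6 intercalated cells at 6 weeks, and to 1408 CPM in MRL/lpr and 731 CPM in C57BL/6 at 10 weeks, with 4 to 6 of them at 0. Most of these UMIs were of Thsd7a, with 217 in MRL/lpr and 73 in C57BL/6 at 6 weeks, and 188 in MRL/lpr and 102 in C57BL/6 at 10 weeks. The podocyte-defining gene Nphs1 had at most 1 UMI in any library, and podocytes themselves had 106 and 156 CPM of Pdgfd in MRL/lpr, less than intercalated cells. Markers of macrophages were at 138 CPM in MRL/lpr and 101 CPM in C57BL/6 intercalated cells at 6 weeks, and at 192 and 87.0 CPM at 10 weeks, and their part in the Pdgfd ratio was not tested.

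Distal and connecting tubule nuclei showed the other order. They had 20 Pdgfd UMIs in MRL/lpr and 96 in C57BL/6 at 6 weeks, and 36 in MRL/lpr and 101 in C57BL/6 at 10 weeks. The levels were 35.8 CPM in MRL/lpr and 125 CPM in C57BL/6 at 6 weeks, and 77.2 CPM in MRL/lpr and 135 CPM in C57BL/6 at 10 weeks. The Pdgfd level was thus 3.50-fold lower in MRL/lpr at 6 weeks (2.14 to 5.98) and 1.74-fold lower at 10 weeks (1.18 to 2.63), so it did not meet the 2-fold rule at both ages. Within MRL/lpr it was 2.15-fold higher at 10 weeks than at 6 weeks (1.21 to 3.93), whereas in C57BL/6 the ratio of 10 over 6 weeks was 1.07 (0.804 to 1.44). The UMIs lay mainly in nuclei with a UMI of Slc12a3, the sodium chloride cotransporter of the distal convoluted tubule, which had 15 Pdgfd UMIs in MRL/lpr and 88 in C57BL/6 at 6 weeks, and 26 in MRL/lpr and 92 in C57BL/6 at 10 weeks. The MRL/lpr over C57BL/6 ratio in these nuclei was 0.278 at 6 weeks and 0.493 at 10 weeks. Nuclei with Calb1 or Slc8a1 and no Slc12a3 had 5, 8, 7 and 9 Pdgfd UMIs in MRL/lpr and C57BL/6 at 6 weeks and then at 10 weeks.

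Podocytes had little Pdgfd. They had 6 UMIs in MRL/lpr and 1 in C57BL/6 at 6 weeks, and 15 in MRL/lpr and 6 in C57BL/6 at 10 weeks, which is under the 50 UMIs needed for a comparison. The ratio of the Pdgfd level, MRL/lpr over C57BL/6, was 2.60 at 10 weeks (0.952 to 8.17).

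**Figure D3:**
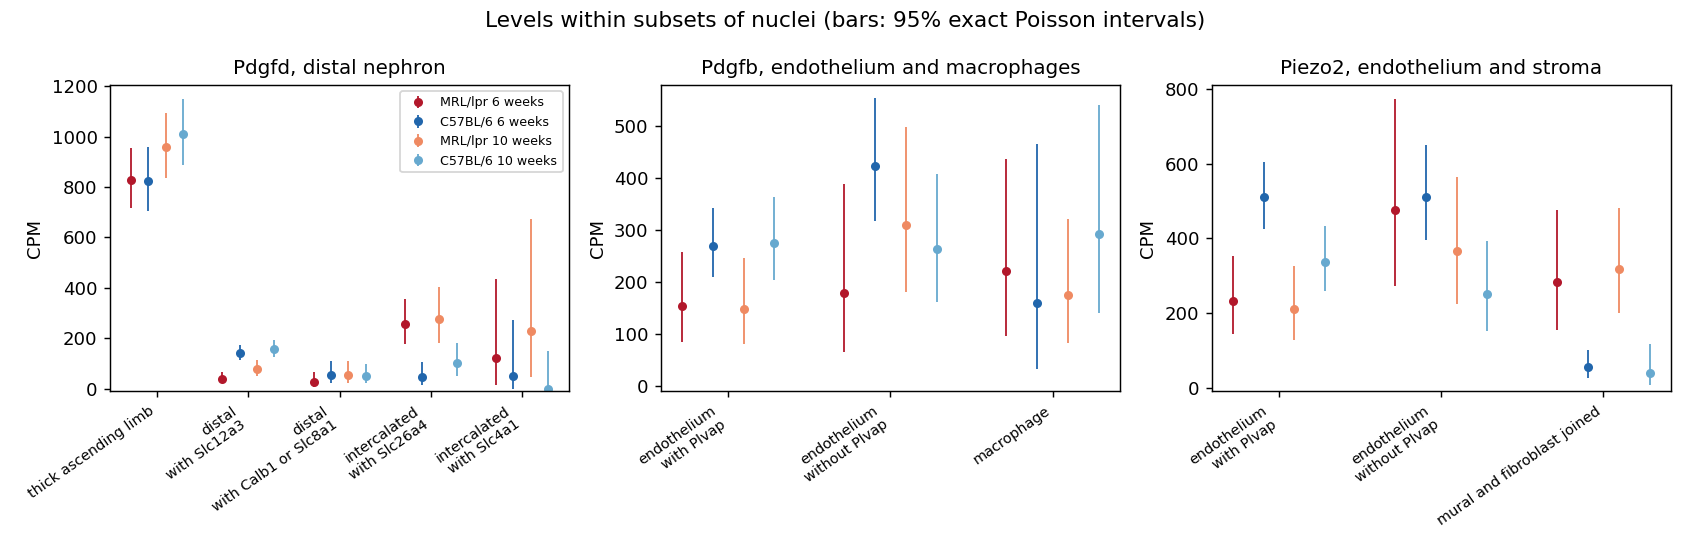
Levels (CPM, vertical axes) of Pdgfd, Pdgfb and Piezo2 in classes or in nuclei split by a marker, with 1 point per library and bars for 95% exact Poisson intervals; MRL/lpr is in red and orange, C57BL/6 in dark and light blue. Pdgfd is higher in MRL/lpr in intercalated nuclei with Slc26a4 and lower in MRL/lpr in distal nuclei with Slc12a3, and Piezo2 is higher in MRL/lpr (283 and 318 CPM) than in C57BL/6 (54.6 and 39.6 CPM) in the joined mural and fibroblast class.

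Pdgfra, the alpha receptor gene, had its highest level in fibroblast nuclei in all 4 libraries. They had 13 UMIs in MRL/lpr and 102 in C57BL/6 at 6 weeks, and 35 in MRL/lpr and 46 in C57BL/6 at 10 weeks. The levels were 627 CPM in MRL/lpr and 870 CPM in C57BL/6 at 6 weeks, and 1030 CPM in MRL/lpr and 1263 CPM in C57BL/6 at 10 weeks. The ratio of the Pdgfra level, MRL/lpr over C57BL/6, was 0.721 at 6 weeks (0.371 to 1.29) and 0.816 at 10 weeks (0.510 to 1.29), and both intervals include no difference. At 10 weeks the level was 1.64 times that at 6 weeks in MRL/lpr (0.848 to 3.38) and 1.45 times in C57BL/6 (1.00 to 2.08). Mural nuclei had 0, 6, 2 and 1 Pdgfra UMIs in MRL/lpr and C57BL/6 at 6 weeks and then at 10 weeks, and all of them lay in mural nuclei with under 2 UMIs of renin genes and under 2 of contractile genes. Intercalated cells had 0 Pdgfra UMIs in every library.

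Pdgfrb, the beta receptor gene, marked both fibroblast and mural nuclei. Fibroblast nuclei had 1592 CPM in MRL/lpr and 1313 CPM in C57BL/6 at 6 weeks, and 1236 CPM in MRL/lpr and 961 CPM in C57BL/6 at 10 weeks, from 33, 154, 42 and 35 UMIs. Mural nuclei had 1243 CPM in MRL/lpr and 700 CPM in C57BL/6 at 6 weeks, and 979 CPM in MRL/lpr and 1132 CPM in C57BL/6 at 10 weeks, from 14, 14, 18 and 16 UMIs. The ranges of these 2 classes overlapped, and every other class lay below both. In fibroblasts the Pdgfrb level was 1.21-fold higher in MRL/lpr at 6 weeks (0.806 to 1.78) and 1.29-fold higher at 10 weeks (0.802 to 2.08). In mural nuclei the MRL/lpr over C57BL/6 ratio was 1.77 at 6 weeks (0.784 to 4.02) and 0.864 at 10 weeks (0.416 to 1.81). All 4 of these intervals include no difference.

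Because nuclei with no class held many receptor UMIs, the mural and fibroblast classes were also joined, with their markers counted as 1 set, an alternative chosen after seeing the data. The joined class held 119 nuclei in MRL/lpr and 524 in C57BL/6 at 6 weeks, and 175 in MRL/lpr and 209 in C57BL/6 at 10 weeks. It had 74 Pdgfrb UMIs in MRL/lpr and 227 in C57BL/6 at 6 weeks, and 84 in MRL/lpr and 73 in C57BL/6 at 10 weeks. Per UMI of the joined class, Pdgfrb was 1.21-fold higher in MRL/lpr at 6 weeks (0.916 to 1.58) and 1.26-fold higher at 10 weeks (0.908 to 1.75). Pdgfra was 1.58-fold lower in MRL/lpr at 6 weeks (1.05 to 2.47) and 1.16-fold lower at 10 weeks (0.794 to 1.69). The make-up of the joined class differed between the strains. At 6 weeks the fibroblast class had 49 nuclei in MRL/lpr and 328 in C57BL/6, beside 119 and 524 in the joined class. Within fibroblasts alone the Pdgfra intervals included no difference. The part of the make-up in any ratio of the joined class was not tested.

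Podocytes, the epithelial cells that cover the glomerular capillaries, had the third highest Pdgfrb level. It was 141 CPM in MRL/lpr and 76.9 CPM in C57BL/6 at 6 weeks, and 135 CPM in MRL/lpr and 130 CPM in C57BL/6 at 10 weeks, from 8, 6, 13 and 13 UMIs. The podocyte range of Pdgfrb did not overlap with the ranges of the classes on either side. The next lower class by mean, macrophages, had at most 1 Pdgfrb UMI a library, so the separation on that side is limited by depth. The 17 mural markers found in the files summed to 17.7 to 104 CPM in podocytes, with 12 to 16 of them at 0, against 22713 to 49365 CPM in mural nuclei. The 16 fibroblast markers summed to 53.0 to 397 CPM in podocytes, with 7 to 15 at 0. Their part in the podocyte Pdgfrb level was not tested. Endothelium had 13.1 to 32.1 CPM of Pdgfrb and every tubule class had at most 13.7 CPM.

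Within the mural class the receptors and mesangial genes were unevenly spread, over very few nuclei. Nuclei with at least 2 UMIs of the renin cell genes Ren1 and Akr1b7 numbered 18 and 19 at 6 weeks and 11 and 11 at 10 weeks, MRL/lpr before C57BL/6, and the other nuclei with at least 2 UMIs of contractile genes numbered 5 and 7 and then 3 and 9. Pdgfrb was seen in all 3 subsets, with 7, 2, 9 and 1 UMIs in the renin nuclei, 4, 3, 1 and 2 in the contractile nuclei and 3, 9, 8 and 13 in the others, for MRL/lpr and C57BL/6 at 6 weeks and then at 10 weeks. Piezo2 had 4, 4, 5 and 1 UMIs in the renin nuclei, in the same order. Itga8 had 2, 0, 3 and 0 UMIs in the renin nuclei and 0, 8, 5 and 0 in the nuclei with neither gene set.

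Itga8, the alpha8 integrin gene, was seen in mural, fibroblast and macrophage nuclei. Mural nuclei had 2 UMIs in MRL/lpr and 10 in C57BL/6 at 6 weeks, and 8 in MRL/lpr and 0 in C57BL/6 at 10 weeks. The count of 0 allows up to 212 CPM, so the 10-week mural level in C57BL/6 is limited by depth. Fibroblast nuclei had 145 CPM in MRL/lpr and 324 CPM in C57BL/6 at 6 weeks, and 177 CPM in MRL/lpr and 302 CPM in C57BL/6 at 10 weeks, from 3, 38, 6 and 11 UMIs. Both MRL/lpr libraries lay below both C57BL/6 libraries there, but the Itga8 ratios of 0.447 at 6 weeks (0.0882 to 1.41) and 0.585 at 10 weeks (0.178 to 1.73) have intervals that include no difference. In the joined mural and fibroblast class the ratio, MRL/lpr over C57BL/6, was 0.570 at 6 weeks (0.261 to 1.12) and 1.53 at 10 weeks (0.752 to 3.19), with no shared direction.

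Macrophage nuclei had 111 CPM of Itga8 in MRL/lpr and 106 CPM in C57BL/6 at 6 weeks, and 192 CPM in MRL/lpr and 118 CPM in C57BL/6 at 10 weeks, from 4, 2, 11 and 4 UMIs. In the same macrophage nuclei Pdgfrb had 0, 1, 0 and 1 UMIs. Of the 21 Itga8 UMIs in macrophages, 2, 1, 10 and 2 remained in macrophage nuclei with no UMI of a mural or fibroblast marker, in MRL/lpr and C57BL/6 at 6 weeks and then at 10 weeks. Itga8 was near 0 in the tubule, at 0 to 6.29 CPM.

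Gata3 was highest not in mural nuclei but in principal cells, the water and sodium reabsorbing cells of the collecting duct, in all 4 libraries. They had 467 CPM in MRL/lpr and 442 CPM in C57BL/6 at 6 weeks, and 619 CPM in MRL/lpr and 498 CPM in C57BL/6 at 10 weeks, from 39, 36, 62 and 68 UMIs. Distal and connecting tubule followed with 197 to 240 CPM and held 549 of the Gata3 UMIs, and intercalated cells had 104 to 214 CPM. Mural nuclei had 142 to 326 CPM of Gata3 from 2 to 6 UMIs a library, a range that overlaps with those of distal and intercalated nuclei. Fibroblast nuclei had 0 Gata3 UMIs in all 4 libraries. The MRL/lpr over C57BL/6 ratio in principal cells was 1.06 at 6 weeks (0.654 to 1.71) and 1.24 at 10 weeks (0.865 to 1.78). In intercalated cells of C57BL/6, Gata3 was 2.05-fold lower at 10 weeks than at 6 weeks (1.13 to 3.85), against 1.23-fold lower in MRL/lpr (0.717 to 2.14).

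Endothelium held most Piezo2 UMIs in C57BL/6. In MRL/lpr, with fewer endothelial nuclei, it held 41.6% at 6 weeks and 42.6% at 10 weeks, still the largest share of any class. By level, mural nuclei lay above endothelium in MRL/lpr, at 444 CPM at 6 weeks and 381 CPM at 10 weeks, on 5 and 7 UMIs. Endothelial nuclei had 297 CPM in MRL/lpr and 510 CPM in C57BL/6 at 6 weeks, and 267 CPM in MRL/lpr and 311 CPM in C57BL/6 at 10 weeks, from 37, 195, 40 and 80 UMIs. The Piezo2 level in endothelium was 1.72-fold lower in MRL/lpr at 6 weeks (1.20 to 2.51) and 1.16-fold lower at 10 weeks (0.787 to 1.75). In C57BL/6 it was 1.64-fold lower at 10 weeks than at 6 weeks (1.26 to 2.15). Among endothelial nuclei with Plvap the MRL/lpr over C57BL/6 ratio was 0.453 at 6 weeks and 0.626 at 10 weeks, from 21 and 130 UMIs and from 20 and 61 UMIs. Among those without Plvap the Piezo2 ratio was 0.931 at 6 weeks (0.503 to 1.63) and 1.46 at 10 weeks (0.739 to 2.89), from 16 and 65 UMIs and from 20 and 19 UMIs.

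Piezo2 in stromal nuclei had the other order, at low counts. Mural nuclei had 5 UMIs in MRL/lpr and 7 in C57BL/6 at 6 weeks, and 7 in MRL/lpr and 1 in C57BL/6 at 10 weeks. Fibroblast nuclei had 4 UMIs in MRL/lpr and 3 in C57BL/6 at 6 weeks, and 12 in MRL/lpr and 2 in C57BL/6 at 10 weeks, or 193 and 25.6 CPM and then 353 and 54.9 CPM. In fibroblasts the ratio of the Piezo2 level was 7.54 at 6 weeks (1.28 to 51.5) and 6.43 at 10 weeks (1.43 to 59.2), and the 12 UMIs in MRL/lpr at 10 weeks came from 6 nuclei. In the joined mural and fibroblast class Piezo2 had 14 UMIs in MRL/lpr and 10 in C57BL/6 at 6 weeks, and 22 in MRL/lpr and 3 in C57BL/6 at 10 weeks. There the ratio was 5.19 at 6 weeks (2.14 to 13.1) and 8.02 at 10 weeks (2.41 to 41.8). Neither class reached the 50 UMIs fixed for a comparison, and the joined class was formed after the data were seen.

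Itgb1, which encodes the beta1 integrin chain shared by many integrins, was found in every class. It was at 686 to 965 CPM in fibroblasts, 495 to 782 CPM in podocytes, 495 to 900 CPM in mural nuclei and 580 to 678 CPM in endothelium, ranges that overlap. Macrophages had 222 to 323 CPM, apart from the classes on either side, and the 5 tubule classes had 39.9 to 154 CPM. In the proximal tubule Itgb1 was 1.17-fold higher in MRL/lpr at 6 weeks (1.01 to 1.35) and 1.06-fold higher at 10 weeks (0.909 to 1.24). In podocytes the level was 1.58-fold lower in MRL/lpr at 6 weeks (0.994 to 2.57) and 1.08-fold higher at 10 weeks (0.770 to 1.53).

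**Figure D4:**
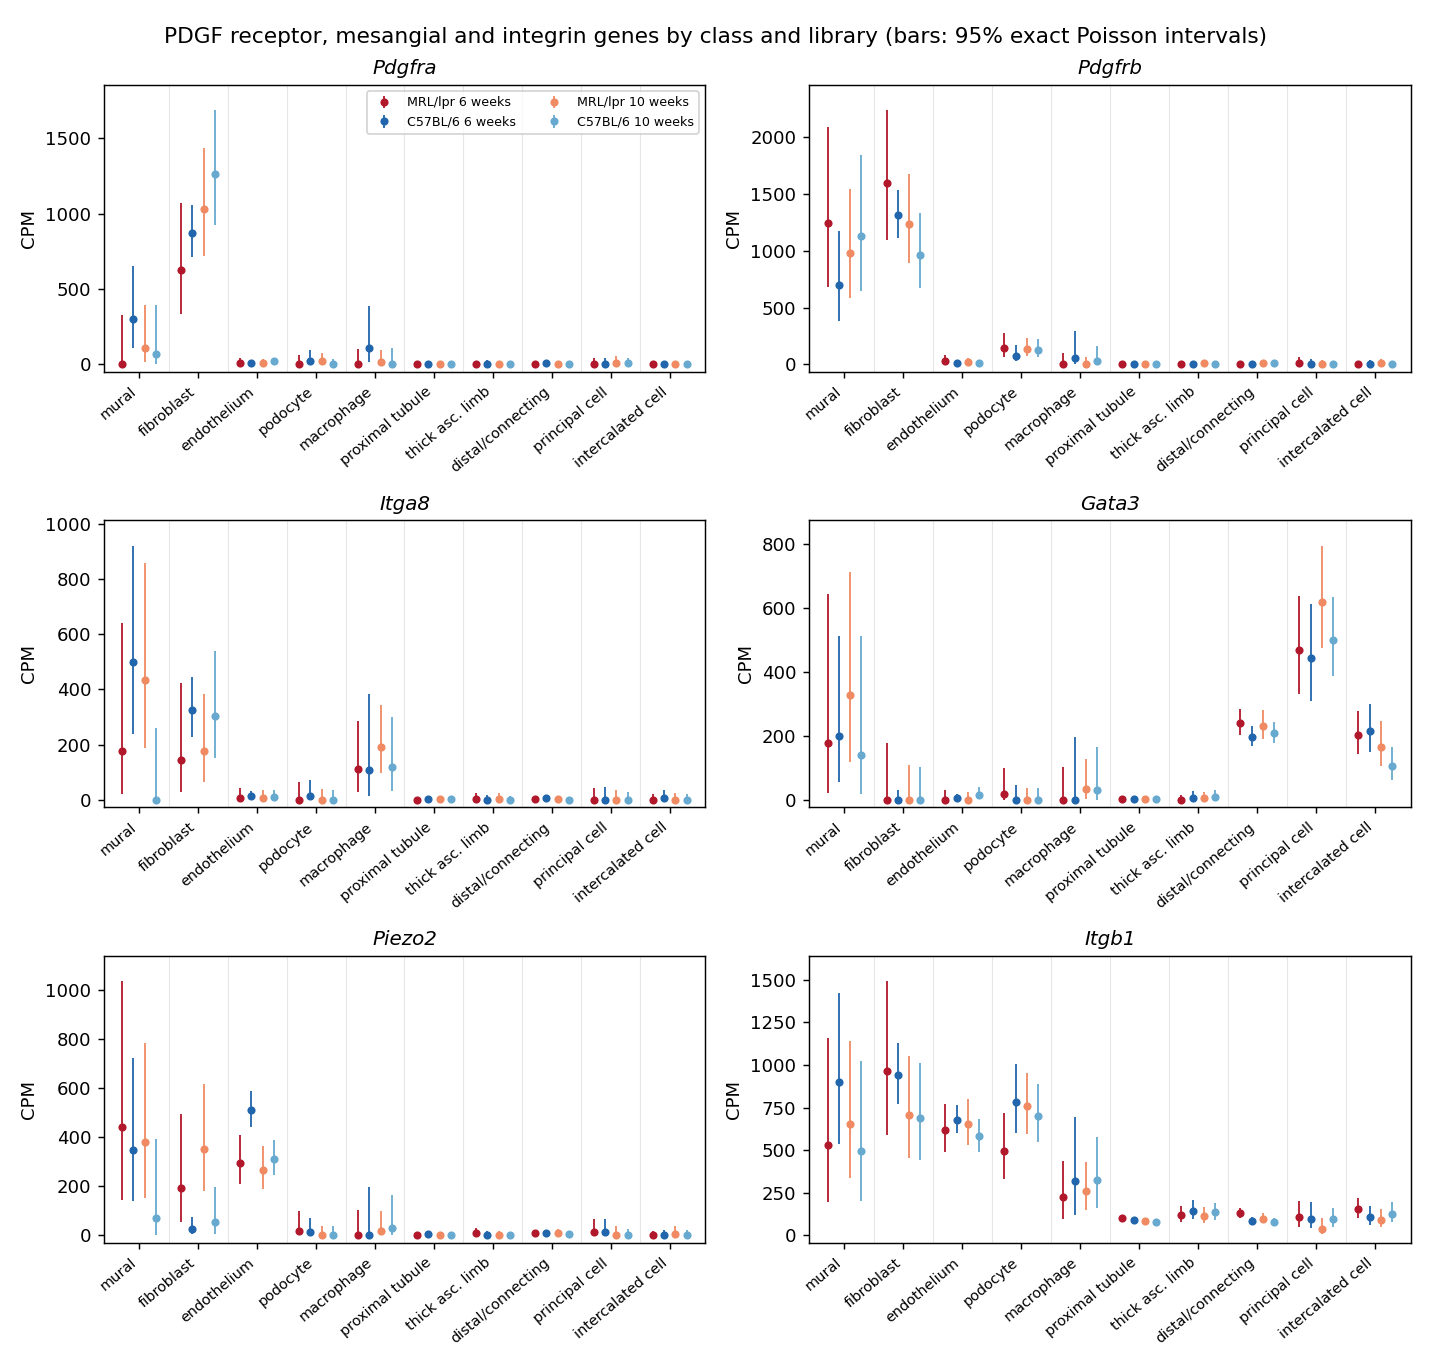
Levels of Pdgfra, Pdgfrb, Itga8, Gata3, Piezo2 and Itgb1 (CPM, vertical axes with different scales) in 10 classes, with 1 point per library and bars for 95% exact Poisson intervals; MRL/lpr is in red and orange, C57BL/6 in dark and light blue. Pdgfra is highest in fibroblasts, Pdgfrb in fibroblast and mural nuclei with a low podocyte level (76.9 to 141 CPM) and Gata3 in principal cells. Piezo2 is highest in endothelium in C57BL/6 (510 and 311 CPM) and in mural nuclei, with wide bars, in MRL/lpr (444 and 381 CPM).

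Set side by side, the classes with most ligand and most receptor RNA differed for Pdgfb and Pdgfd with Pdgfrb. At low counts they also differed for Pdgfa with its receptor gene Pdgfra. Highest classes were endothelium or macrophages for Pdgfb, and thick ascending limb or endothelium for Pdgfd, while the beta receptor gene Pdgfrb was highest in fibroblast or mural nuclei. The mural levels of Pdgfb and Pdgfd are limited by depth. For the alpha receptor gene Pdgfra the highest class was fibroblast, while Pdgfc was highest in proximal tubule in 2 libraries and in mural nuclei, on 5 and 4 UMIs, in MRL/lpr at 6 weeks and C57BL/6 at 10 weeks. Pdgfa was highest in mural nuclei, on 2 to 7 UMIs a library. For 3 of the 10 genes (Pdgfa, Pdgfra and Gata3) the highest class was the same in all 4 libraries. The share of all genes with that trait was not computed, so this count is a description only. RNA levels were measured here, not protein or binding.

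Most strain and age ratios of the 10 genes were small. Of the 29 pairs of gene and class with at least 50 UMIs, 0 were 2-fold or more lower in MRL/lpr at each age, against 1.7% of the pairs of all genes. With age, 0 of the 29 were at least 2-fold higher at 10 weeks in both strains, against 0.185% of all pairs, and 0 were at least 2-fold lower, against 0.201%. At backgrounds this low, a count of 0 or 1 among 29 pairs is near the share found over all genes. Without the 2-fold limit, 11 of the 29 lay higher and 8 lower in MRL/lpr at each age, and 6 lay higher and 11 lower at 10 weeks in each strain. The matching shares over all genes were not computed, so these counts are a description only. The median log2 ratio of MRL/lpr over C57BL/6 over these 29 pairs was 0.00 at 6 weeks and 0.05 at 10 weeks, beside -0.02 and 0.00 over all pairs of gene and class.

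**Figure D5:**
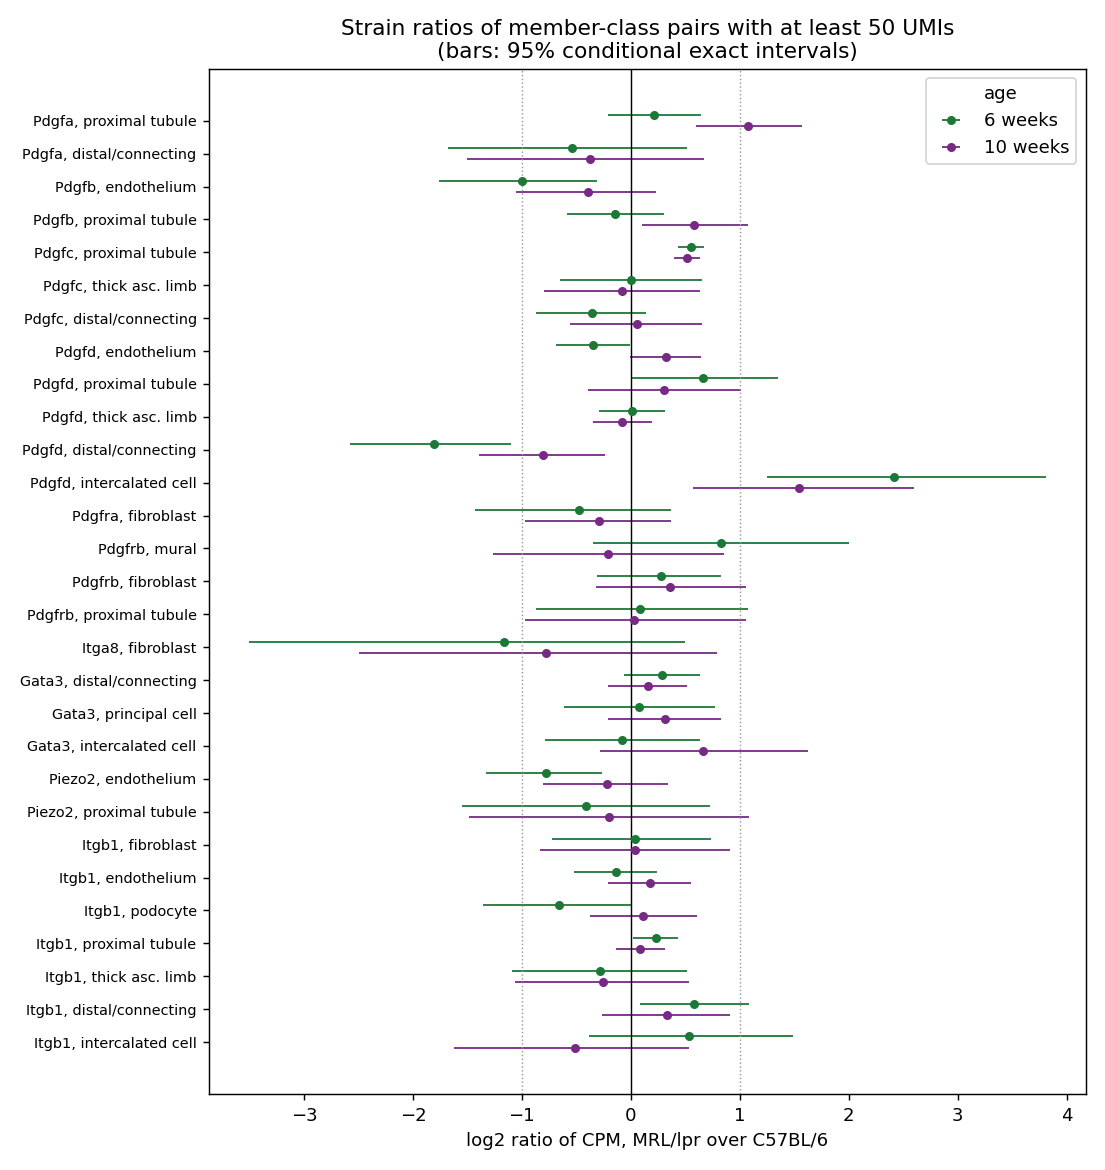
Log2 ratio of CPM, MRL/lpr over C57BL/6 (horizontal axis), at 6 weeks (green) and 10 weeks (purple) for the 29 pairs of gene and class with at least 50 UMIs, with bars for 95% conditional exact intervals and dotted lines at 2-fold. Pdgfd in intercalated cells lies past the right dotted line at both ages (2.41 and 1.54), Pdgfd in distal and connecting tubule is lowest (-1.81 and -0.80), and Pdgfc in proximal tubule has the narrowest bars (0.55 and 0.51).

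Other genes of the pathway were read from 5 lists with 68 genes, which formed 269 pairs of gene and class with at least 50 UMIs. Of these, 5 pairs were 2-fold or more higher in MRL/lpr at each age and 0 were lower, or 1.86% of pairs against the 1.85% over all genes. The median log2 ratio over the 269 pairs was 0.08 at 6 weeks and 0.10 at 10 weeks, beside -0.02 and 0.00 over all pairs. With age, 1 of the 269 pairs was called higher at 10 weeks and 3 lower, against 0.185% and 0.201% over all genes. Among the genes that cut or bind PDGFs, Plat, which encodes tissue plasminogen activator, had 68 UMIs in MRL/lpr and 67 in C57BL/6 endothelium at 6 weeks, and 128 in MRL/lpr and 75 in C57BL/6 at 10 weeks. The log2 ratio of the Plat level was 1.64 at 6 weeks and 1.55 at 10 weeks. It was the 1 called pair of 30 in that list, whose median log2 ratio was -0.19 at 6 weeks and 0.23 at 10 weeks. Among all endothelial genes with at least 50 UMIs, 1.09% were called higher in MRL/lpr. Sparc, a matrix protein that binds PDGF-B, had an endothelial log2 ratio of 0.89 at 6 weeks and 1.62 at 10 weeks, just short of the 2-fold rule at 6 weeks. Nrp1, a coreceptor gene, had endothelial log2 ratios of -0.75 at 6 weeks and -0.79 at 10 weeks. In mural nuclei the log2 ratio of Sparc was -1.26 at 6 weeks and 0.75 at 10 weeks, and that of Nrp1 was 0.15 and 0.25. In fibroblasts Sparc had -0.62 and 0.25, and Nrp1 0.93 and 0.44.

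Of the genes that act downstream of the receptors, 28 formed 127 pairs, of which 1 was called, with medians of 0.10 and 0.14. Cblb, a ubiquitin ligase gene, had 57 UMIs in MRL/lpr and 24 in C57BL/6 podocytes at 6 weeks, and 76 in MRL/lpr and 32 in C57BL/6 at 10 weeks, with log2 ratios of 1.71 and 1.30. Among all podocyte genes with at least 50 UMIs, 2.7% were called higher in MRL/lpr. In the cells with most Pdgfrb the counts were low: only Pik3r1, a subunit of phosphoinositide 3-kinase, reached 50 UMIs in fibroblasts, with log2 ratios of 0.23 at 6 weeks and -0.38 at 10 weeks, and 0 of the 28 did in mural nuclei. In endothelium the kinases Yes1 and Fyn, which had the most UMIs of the list, had log2 ratios of 0.16 and 0.22 for Yes1 and -0.06 and -0.17 for Fyn.

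Of the alpha chains that pair with the product of Itgb1, 9 genes formed 30 pairs, and 0 differed 2-fold between the strains at each age, with medians of 0.00 and 0.04. Itga9 in macrophages was at least 2-fold higher at 10 weeks in both strains, with 39 UMIs at 10 weeks and 10 at 6 weeks in MRL/lpr, and 25 at 10 weeks and 3 at 6 weeks in C57BL/6. The log2 ratio of 10 over 6 weeks was 1.29 in MRL/lpr and 2.20 in C57BL/6. Among all 365 macrophage genes with at least 50 UMIs, 1.92% met that rule, a higher share than over all classes. In fibroblasts the strain log2 ratios of Itga1 were 0.07 at 6 weeks and -0.29 at 10 weeks, and those of Itga9 were 0.20 and -0.31. In endothelium they were -0.16 and 0.02 for Itga9 and -0.38 and 0.28 for Itga5.

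Ligands of the alpha8 beta1 integrin and integrin adaptors formed 57 pairs, of which 2 were called higher in MRL/lpr, both of the adaptor gene Tln2, and the medians of the list were 0.16 and 0.14. Tln2 had 69 UMIs in MRL/lpr and 25 in C57BL/6 intercalated cells at 6 weeks, and 56 in MRL/lpr and 21 in C57BL/6 at 10 weeks, with log2 ratios of 1.22 and 1.66. In principal cells the log2 ratios of Tln2 were 1.55 and 1.07. Of all genes with at least 50 UMIs, 1.87% in intercalated cells and 1.81% in principal cells were called higher in MRL/lpr. With age, Fn1, which encodes fibronectin, and Lims1, an adaptor gene, were at least 2-fold lower in fibroblasts at 10 weeks in both strains. Among all 740 fibroblast genes with at least 50 UMIs, 1.22% met that rule, a higher share than over all classes. For Fn1 the log2 ratio of 10 over 6 weeks was -1.18 in MRL/lpr and -1.46 in C57BL/6, and for Lims1 it was -1.24 and -1.09. Lims1 rests on 9 and 6 UMIs at 10 weeks in MRL/lpr and C57BL/6. The strain log2 ratios of Fn1 in fibroblasts were 0.72 and 0.99, and those of Fermt2 were -0.17 and -0.58. In endothelium Ptk2, the focal adhesion kinase gene, had 0.23 and -0.07, and Fermt2 had 0.06 and 0.09.

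Other genes known from mesangial cells, 12 in number, formed 25 pairs, of which 1 was called higher in MRL/lpr, and the medians of the list were 0.17 and -0.22. This was the transcription factor Mef2c in the thick ascending limb, with 33 UMIs in MRL/lpr and 6 in C57BL/6 at 6 weeks, and 25 in MRL/lpr and 2 in C57BL/6 at 10 weeks, and log2 ratios of 2.22 and 3.68. Among all thick ascending limb genes with at least 50 UMIs, 1.13% were called higher in MRL/lpr. Ednrb, an endothelin receptor gene, was at least 2-fold lower at 10 weeks in proximal tubule of both strains, where it was near 0 at 1.37 to 6.93 CPM. Among all proximal tubule genes with at least 50 UMIs, 0.17% met that rule. In mural nuclei the strain log2 ratios were -1.37 at 6 weeks and 0.54 at 10 weeks for Igfbp5, and -0.25 and -0.96 for Nr2f2. In fibroblasts they were -2.16 and -0.26 for Igfbp5, where MRL/lpr at 6 weeks had 6 UMIs, and 0.20 and -0.17 for Nr2f2. In endothelium they were -0.41 and -0.24 for Igfbp5 and 0.00 and 0.09 for Mef2c.

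The patterns most like those of the 10 genes were taken from 40 values, 10 classes in each of 4 libraries, as Pearson's r of log2(CPM + 10). The values share libraries and classes, so r is a description of likeness only. For Pdgfb they were Cd93 (r = 0.865), Inpp5d (0.862) and Abi3 (0.853), and for Pdgfrb they were Adamts5 (0.933), Pde3a (0.928) and Svep1 (0.924). For Pdgfra the genes were Hsd11b1 (0.919), Adamts12 (0.898) and Adamts5 (0.888). Itga8 was most like Mmp14 (0.879), Slco2b1 (0.855) and Pid1 (0.854), Piezo2 like Eln (0.921), Calcrl (0.914) and Dkk2 (0.903), and Itgb1 like Tshz2 (0.936), Emp3 (0.927) and Sparc (0.918). The other genes had looser matches. For Pdgfa they were Sntb1 (0.768), Skp2 (0.729) and Cspg4 (0.708), of which Cspg4 is a mural marker used to set the classes, for Pdgfc Gpc4 (0.774), Ldlrad3 (0.752) and Fgf1 (0.748), for Pdgfd Slc2a13 (0.771), Sntb1 (0.757) and Frmd4a (0.715), and for Gata3 Sdk1 (0.830), Gm15810 (0.785) and 9230102O04Rik (0.785).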

How the data were processed

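The deposited files hold 1 matrix of UMI counts per gene and barcode for each library. Per the labels' protocols, nuclei came from an iodixanol gradient and were loaded on a 10x Genomics 3′ kit with poly-dT priming. The counts were made by the authors with Cell Ranger, given as version 5.0.0 in the matrices, per the file headers, while the version in the submitters' processing notes is 3.1.0, and barcodes were already called. The genome build, the treatment of intronic reads and any correction for free RNA were not stated in those sources, so no coordinates are reported. Depth per library is given above.

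From these counts, 593 barcodes were dropped for having under 200 genes or over 10% of UMIs from mitochondrial genes, as were 2742 marked as doublets by Scrublet in scanpy 1.11.5 at an expected 0.8% per 1000 barcodes. The automatic threshold marked 0 in MRL/lpr at 6 weeks, so there the highest scores at that rate were marked. A nucleus went to the class with the most marker UMIs if at least 2 different markers were seen and their UMIs were at least 2 times those of the next class. Of 132 markers 1 (Carmn) is not in the gene list, and 16 lymphocyte nuclei were not compared. UMIs were summed per class and library and scaled to CPM. Pairs of gene and class with at least 50 UMIs over the 4 libraries were compared by the ratio of CPM with conditional exact binomial 95% intervals, levels with exact Poisson intervals. A pair was called at 2-fold or more in the same direction at both ages or in both strains. A count of 0 allows 3 UMIs. Splits of a class by single genes or by UMIs of other classes, other than the mural subsets, were chosen after seeing the data.

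Calculations used Python 3.11.15, numpy 2.4.6, scipy 1.17.1 and pandas 2.3.3, and were tested on simulated data. All 10 genes were named, with the 2 genes of most UMIs per list in mural, fibroblast and endothelial nuclei, all called list genes, and 3 alike patterns per gene. For the lists, the naming was limited to those 3 classes for space. The genes and lists were chosen with earlier results of these data known.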

Additional observations from a re-analysis of the deposited data

Results flagged for a closer look

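Nuclei given to no class were outside the comparisons, yet all 10 genes had UMIs in them, above the 3 UMIs that a count of 0 allows. Over the 4 libraries they held 67 UMIs of Pdgfa, 70 of Pdgfb, 252 of Pdgfc, 440 of Pdgfd, 258 of Pdgfra, 392 of Pdgfrb, 104 of Itga8, 184 of Gata3, 66 of Piezo2 and 501 of Itgb1. For Pdgfra this was 49.0% of all its UMIs. In the 3149 nuclei with no class, proximal tubule markers made up 0.265 to 0.689% of UMIs per library.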

How the results depend on the processing

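Keeping the doublets brought the count of pairs 2-fold or more lower in MRL/lpr at each age to 1, Pdgfra in proximal tubule. A limit of 20 UMIs brought the count of higher pairs to 3, adding Piezo2 in fibroblasts and Pdgfd in podocytes, and no limit brought it to 4, adding Pdgfc in endothelium. With 3 different markers needed, 4 genes had the same highest class in all libraries. Of 928 single ratios under 8 alternatives, including 1 marker (chosen after seeing the data), 925 moved by less than their counting interval and 0 of the called ones changed sign. The other 3 were log2 strain ratios: at 6 weeks in proximal tubule with doublets kept, Pdgfd had -0.13 instead of 0.66 and Pdgfrb -0.94 instead of 0.09, and at 10 weeks in endothelium with 308 UMIs as the minimum in all libraries, Pdgfd had 0.75 instead of 0.32. Pdgfd in intercalated cells kept log2 ratios of 2.07 to 2.58 at 6 weeks and 1.54 to 1.60 at 10 weeks. The cause of the 3 shifts was not tested. Some of the 928 ratios could not move. Nuclei with proximal tubule RNA were left out only outside the tubule, so all tubule ratios, with Pdgfd in intercalated cells, stayed unchanged there. Subtracting that RNA was not applied to the proximal tubule. These unchanged ratios are counted among the 925. No paired analysis was possible because each group has 1 library, and no replicate could be left out. Depth limits mural nuclei most, where 1 UMI equals at least 50.0 CPM.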
